A study of Mus musculus with 10 samples.

Results

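The genes described here are 9 markers of cardiac fibroblasts other than collagens: Pdgfra, Dcn, Lum, Dpt, Mfap5, Pi16, Tcf21, Gsn and Vim. They were taken as the probe sets whose platform annotation gives 1 of these symbols and no other, which found 1 probe set for each of the 9, among 19938 genes that the arrays measured. All 9 passed the filter on dim probe sets and stood among the 13870 genes tested. Ventricular RNA from 10 mice was measured on Affymetrix arrays, 1 array per mouse, as log2 signals. The 5 arrays titled PGC-1a-/-bf/f/MerCre came from mice given tamoxifen, and their genotype label states a knockout of PGC-1a and of PGC-1b. The 5 arrays titled PGC-1a-/- came from mice given sunflower seed oil alone, and their genotype label states a knockout of PGC-1a with PGC-1b unaffected. The source names give all 10 mice the same alleles, no PGC-1a, floxed PGC-1b and MerCre, a Cre recombinase made active by tamoxifen, whereas the titles name the floxed allele and the Cre only for the tamoxifen group. The dose was 50 mg/kg per day on 2 days at 2 months of age, and hearts were collected 1 month later. The labels do not name the promoter that drives the Cre, nor the cell types in which PGC-1b was to be lost. None of these groups had tamoxifen without the floxed allele or the Cre.

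The levels of both targeted genes did not follow the genotype labels. Ppargc1b, which encodes PGC-1b, read 9.93 to 10.15 in the 5 tamoxifen-labelled arrays and 9.65 to 9.90 in the 5 vehicle-labelled arrays. It was therefore higher where the label states a knockout (0.27 ± 0.061 on the log2 scale, SE, limma adjusted p = 0.00518). Ppargc1a, which encodes PGC-1a, is labelled as knocked out in all 10 mice. It read 10.95 to 11.58 in the tamoxifen-labelled arrays and 10.70 to 11.04 in the vehicle-labelled arrays, and was higher in the tamoxifen-labelled arrays (0.39 ± 0.095, SE, limma adjusted p = 0.00797). The labels do not say which exons were deleted or floxed, so these probe sets may lie outside them. The arrays are called by their labels throughout, and every direction rests on those labels. The median over all probe sets was 7.31 in tamoxifen-labelled array 2, against 7.18 to 7.24 in the remaining arrays. It was also the highest of all 10 arrays in 7 of the 9 fibroblast markers, so results are given without it where that changes them.

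Fibroblasts make and maintain the collagen network around heart muscle cells, and in an injured heart a part of them turns into contractile, matrix-secreting myofibroblasts. Pdgfra, the receptor for platelet-derived growth factors, and Tcf21, a transcription factor needed in the mouse for this lineage to form, are the usual genes for telling resident fibroblasts from other cells. Dcn, Lum, Dpt and Mfap5 encode secreted proteins that bind collagen fibrils or microfibrils. Pi16 encodes a secreted or surface protein found in fibroblasts of the adventitia in the mouse, while Vim and Gsn encode cytoskeletal proteins that other cells of the heart also make.

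Of the 9 markers, 5 rose in the tamoxifen-labelled arrays, namely Mfap5, Pi16, Lum, Dpt and Vim, and 0 fell. Across all tested genes 13.7% rose, 8.31% fell and 22.1% did either by the same rule (limma, Benjamini-Hochberg adjusted p under 0.05). The balance of all genes turned without tamoxifen-labelled array 2, with 1625 higher and 1645 lower, against 1906 higher and 1153 lower with all arrays; 4 of the 9 markers then rose and 0 fell. The rises ran between 1.11-fold for Vim and 1.36-fold for Mfap5. The lineage genes Pdgfra and Tcf21 and the markers Dcn and Gsn did not pass. In 4 markers, Dcn, Dpt, Mfap5 and Pi16, the 5 tamoxifen-labelled values all lay above the 5 vehicle-labelled ones, which held for 10.5% of all tested genes, while 6.15% were apart in the other direction. The median log2 difference was 0.15 over the 9 markers and 0.014 over all tested genes. In RNA of whole ventricles, more cells of a type and more RNA per cell cannot be told apart. The labels do not say how the mice relate to each other, so p-values measure the spread between these arrays, and their number, 5 per group, limits the precision.

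**Figure D1:**
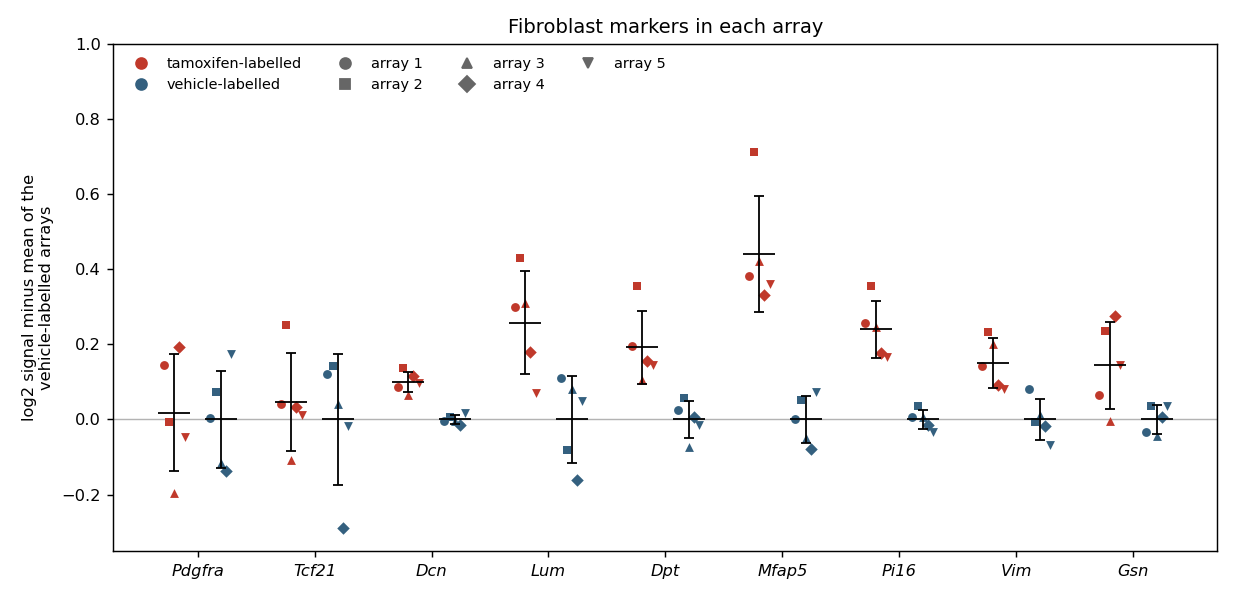
Each point is 1 array, as the log2 signal minus the mean of the vehicle-labelled arrays of that gene; horizontal marks and bars are the mean and SD of the 5 arrays of a group, with the tamoxifen-labelled group left of the vehicle-labelled group. The groups do not overlap in Dcn, Dpt, Mfap5 and Pi16, and the square of tamoxifen-labelled array 2 is the highest point in 7 of the 9 genes.

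RefSeq start regions (GRCm38.p6, 250 bases before to 50 after the start) were at hand for 6 of the 9 genes, in 8 windows, since Gsn has 3. They are shown for a pair of markers that rose, Pi16 and Dpt, and for the lineage genes, which did not pass, so that the letters can be compared. The windows of Vim, which also rose, and of Gsn, which did not pass, are described below without their letters. Capitals mark matches, on either strand, to 6 motifs. These were the E-box with the letters CAGCTG, the TATA box with TATAAA, the CCAAT box, the TEAD motif with GGAATG, the AP-1 motif with TGANTCA, and the GC box with GGGCGG.
Pi16 (chr17:29318632-29318931, plus strand): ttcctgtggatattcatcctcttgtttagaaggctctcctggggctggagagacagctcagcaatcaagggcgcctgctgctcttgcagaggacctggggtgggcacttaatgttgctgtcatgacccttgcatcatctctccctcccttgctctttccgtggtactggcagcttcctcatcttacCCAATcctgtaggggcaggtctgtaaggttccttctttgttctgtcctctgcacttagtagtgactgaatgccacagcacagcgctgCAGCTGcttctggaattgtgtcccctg
Dpt (chr1:164796413-164796712, plus strand): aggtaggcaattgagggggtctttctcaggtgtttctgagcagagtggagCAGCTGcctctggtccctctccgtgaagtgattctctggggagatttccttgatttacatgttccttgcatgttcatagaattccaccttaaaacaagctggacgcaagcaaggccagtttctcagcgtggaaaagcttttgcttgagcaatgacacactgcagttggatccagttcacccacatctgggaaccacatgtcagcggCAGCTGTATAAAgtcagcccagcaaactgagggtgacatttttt
Pdgfra (chr5:75152001-75152300, plus strand): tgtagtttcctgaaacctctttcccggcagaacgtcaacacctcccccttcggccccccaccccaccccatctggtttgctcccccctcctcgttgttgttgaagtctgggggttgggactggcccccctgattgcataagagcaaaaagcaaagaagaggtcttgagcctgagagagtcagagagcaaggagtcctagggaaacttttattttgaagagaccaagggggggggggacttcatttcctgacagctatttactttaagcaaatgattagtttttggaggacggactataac
Tcf21 (chr10:22820094-22820393, minus strand): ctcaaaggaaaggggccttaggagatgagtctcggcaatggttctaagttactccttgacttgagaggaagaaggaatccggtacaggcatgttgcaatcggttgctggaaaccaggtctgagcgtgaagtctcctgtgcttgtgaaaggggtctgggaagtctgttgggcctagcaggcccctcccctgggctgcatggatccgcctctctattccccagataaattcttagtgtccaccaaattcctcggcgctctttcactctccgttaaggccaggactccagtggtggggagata
Pi16 holds 1 E-box and 1 CCAAT box, and Dpt holds an E-box on its own and an E-box directly followed by a TATA box, without overlap. The Pdgfra and Tcf21 windows hold none of the 6 motifs. The Vim window holds a TATA box and CCAAT boxes but no E-box, although Vim rose. Gsn holds the E-box in 2 of its 3 windows, although it did not pass. In all, 4 of the 8 windows hold the E-box, from 3 of the 6 genes (Pi16, Dpt and Gsn), and 16.3% of all 32851 RefSeq windows hold it. The CCAAT box stands in 37.4% of all windows, the TATA box in 13.6%, the GC box in 35.7%, the TEAD motif in 14.7% and the AP-1 motif in 7.81%. The last 2 matched in 0 of the 8 windows. These matches describe letters in a window and show no binding.

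The receptor gene Pdgfra read 9.86, 9.71, 9.52, 9.91 and 9.67 in the tamoxifen-labelled arrays 1 to 5, and 9.72, 9.79, 9.60, 9.58 and 9.89 in the vehicle-labelled arrays 1 to 5. The groups overlapped almost fully, and both the highest and the lowest of the 10 values were in tamoxifen-labelled arrays. The log2 difference was 0.018 ± 0.077 (SE, limma adjusted p = 0.900), with a 95% interval of -0.14 to 0.18, or 0.905-fold to 1.13-fold. Its direction turned under quantile normalization (-0.010) and without tamoxifen-labelled array 1 (-0.014) or 4 (-0.026) or vehicle-labelled array 3 (-0.011) or 4 (-0.016).

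Tcf21 read 8.26, 8.47, 8.11, 8.25 and 8.23 in the tamoxifen-labelled arrays and 8.34, 8.36, 8.26, 7.93 and 8.20 in the vehicle-labelled arrays. Here tamoxifen-labelled array 2 was the highest and vehicle-labelled array 4 the lowest of all, and the other 8 values were mixed. The difference was 0.046 ± 0.080 (SE, limma adjusted p = 0.738; 95% interval -0.12 to 0.22), and it was -0.0055 without tamoxifen-labelled array 2 and -0.026 without vehicle-labelled array 4. Pdgfra and Tcf21 also varied most between mice, with residual SDs of 0.144 and 0.153 on the log2 scale, against a median of 0.0942 over all tested genes. With 5 arrays per group, a change of either gene within its interval remained possible.

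The ligands and receptors around Pdgfra were set beside it. Pdgfa and Pdgfb, both ligands of platelet-derived growth factor receptors, rose by 0.19 ± 0.051 and 0.23 ± 0.065 (SE, limma adjusted p = 0.0126 and 0.0191). Pdgfd (0.17) and Pdgfc (0.15) did not pass (adjusted p = 0.0917 and 0.147), nor did Pdgfrb, the receptor of pericytes and smooth muscle (-0.064, adjusted p = 0.385). In all, 2 of the 7 tested genes of this family rose and 0 fell. The call of Pdgfb was lost without vehicle-labelled array 3, and without tamoxifen-labelled array 2 and vehicle-labelled array 4 together (adjusted p 0.00548 to 0.0607 over the 20 alternatives). Pdgfd passed with the replicate number as a block (adjusted p = 0.0471) and without tamoxifen-labelled array 3 or vehicle-labelled array 5 (adjusted p 0.0229 to 0.254). Pdgfc passed without vehicle-labelled array 4, alone or together with tamoxifen-labelled array 2 (adjusted p 0.0238 to 0.298).

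Dcn and Lum encode decorin and lumican, small leucine-rich proteoglycans that bind collagen and set the width of its fibrils. Dcn read 13.65, 13.70, 13.63, 13.68 and 13.66 in the tamoxifen-labelled arrays and 13.56, 13.57, 13.56, 13.55 and 13.58 in the vehicle-labelled arrays. The groups did not overlap, yet the difference was small, 0.10 ± 0.043 (SE, 1.07-fold), and did not pass (limma adjusted p = 0.108). Its residual SD of 0.0207 lay at percentile 0.0901 of all tested genes, and its mean signal at percentile 99.7. With a prior on the variance that follows the signal, the adjusted p of Dcn was 0.00817, and under quantile normalization its difference was 0.036 (adjusted p = 0.469).

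Lum read 10.76, 10.89, 10.77, 10.64 and 10.53 in the tamoxifen-labelled arrays and 10.57, 10.38, 10.54, 10.30 and 10.51 in the vehicle-labelled arrays. Tamoxifen-labelled array 5 lay within the vehicle-labelled range, and the other 4 lay above it. The rise was 0.26 ± 0.070 (SE, 1.20-fold, limma adjusted p = 0.0149). It missed the threshold without tamoxifen-labelled array 2 and vehicle-labelled array 4 together (0.18, adjusted p = 0.0628; lowest of the alternatives 0.00340). In the GRCm38.p6 gene table Dcn, Lum, Kera and Epyc are neighbours, and Kera and Epyc, both of the same protein family, were below the filter. Of 12 tested small leucine-rich proteoglycan genes 3 rose and 0 fell, and besides Lum these were biglycan, Bgn (0.26 ± 0.055, SE, limma adjusted p = 0.00299), and asporin, Aspn (0.27 ± 0.073, adjusted p = 0.0146).

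Dpt encodes dermatopontin, a small matrix protein that binds decorin and helps collagen fibrils to form. It read 11.85, 12.01, 11.76, 11.81 and 11.80 in the tamoxifen-labelled arrays, against 11.68, 11.71, 11.58, 11.66 and 11.64 in the vehicle-labelled arrays. All tamoxifen-labelled values were above all vehicle-labelled ones. The rise was 0.19 ± 0.054 (SE, 1.14-fold, limma adjusted p = 0.0175), and without vehicle-labelled array 3 the adjusted p was 0.0520 (lowest of the alternatives 0.00125).

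Mfap5 encodes a glycoprotein of the fibrillin microfibrils that surround elastic fibres. It read 10.69, 11.02, 10.73, 10.64 and 10.67 in the tamoxifen-labelled arrays and 10.31, 10.36, 10.26, 10.23 and 10.38 in the vehicle-labelled arrays. The lowest tamoxifen-labelled value was above the highest vehicle-labelled one, and array 2 stood above the other 4 of its group. The rise was the highest of the 9 markers, 0.44 ± 0.067 (SE, 1.36-fold with a 95% interval of 1.23-fold to 1.50-fold, limma adjusted p = 0.000166). Without tamoxifen-labelled array 2 it was 0.37, and the gene passed under all 20 alternatives, with an adjusted p of at most 0.000981.

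Most genes of microfibrils and elastic fibres did not pass. Of 16 tested, Mfap5 included, 3 rose and 1 fell. Besides Mfap5, Emilin2, an elastic fibre glycoprotein, rose by 0.23 ± 0.049 (SE, limma adjusted p = 0.00287), and Mfap4 by 0.24 ± 0.084 (adjusted p = 0.0489). The call of Mfap4 was lost under 9 of 20 alternatives, among them without tamoxifen-labelled array 1, 2 or 4 or vehicle-labelled array 1, 2, 3 or 5 (adjusted p 0.0164 to 0.104 across them). Ltbp1, which ties latent TGF-beta to the matrix, fell by 0.33 (adjusted p = 0.000127).

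Pi16 read 9.18, 9.28, 9.17, 9.10 and 9.09 in the tamoxifen-labelled arrays and 8.93, 8.96, 8.93, 8.91 and 8.89 in the vehicle-labelled arrays. The groups were clearly apart, with a gap of more than the whole vehicle-labelled range. The rise was 0.24 ± 0.049 (SE, 1.18-fold, limma adjusted p = 0.00207), and the gene passed under all 20 alternatives (adjusted p at most 0.00698). Among 8 tested markers of adventitial fibroblasts other than Pi16, 1 rose and 0 fell. That gene was Cd55, a regulator of complement (0.25 ± 0.069, SE, limma adjusted p = 0.0158), whose call was lost without tamoxifen-labelled array 2 and vehicle-labelled array 4 together (adjusted p = 0.0573). Cd34, a surface marker shared with endothelium, had a difference of 0.12 (adjusted p = 0.172), and Anxa3 and Sema3c had 0.18 and 0.12 (adjusted p = 0.0536 and 0.272). Anxa3 passed under 7 of 20 alternatives, among them with the replicate number as a block (adjusted p = 0.0415) and without tamoxifen-labelled array 3 or vehicle-labelled array 2 (adjusted p 0.0204 to 0.181).

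Vim encodes vimentin, the intermediate filament protein of mesenchymal cells, endothelium and macrophages. It read 13.27, 13.36, 13.33, 13.22 and 13.21 in the tamoxifen-labelled arrays and 13.21, 13.12, 13.14, 13.11 and 13.06 in the vehicle-labelled arrays. The groups met at 13.21, the lowest tamoxifen-labelled and the highest vehicle-labelled value. The rise was 0.15 ± 0.050 (SE, 1.11-fold, limma adjusted p = 0.0400). Its call was lost without tamoxifen-labelled array 1, 2 or 3, without vehicle-labelled array 2, 3, 4 or 5, with dim genes kept in the fit (adjusted p = 0.0771) and without tamoxifen-labelled array 2 and vehicle-labelled array 4 together (0.0757). Across the 20 alternatives its adjusted p lay between 0.00167 and 0.0995. Of 9 tested intermediate filament and linker genes, 3 rose and 1 fell. Besides Vim these were the muscle filament gene Sync (0.40 ± 0.059, SE, limma adjusted p = 0.000108), the lamin gene Lmna (0.20, adjusted p = 0.0112) and, as the gene that fell, the linker gene Plec (-0.24, adjusted p = 0.00789).

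Gsn encodes gelsolin, which cuts and caps actin filaments and also has a secreted form. It read 11.81, 11.98, 11.74, 12.02 and 11.89 in the tamoxifen-labelled arrays and 11.71, 11.78, 11.70, 11.75 and 11.78 in the vehicle-labelled arrays. Tamoxifen-labelled array 3 lay within the vehicle-labelled range and the other 4 lay above it. The difference was 0.14 ± 0.057 (SE, 95% interval 0.024 to 0.26) and did not pass (limma adjusted p = 0.0822). It passed without tamoxifen-labelled array 3 (0.18, adjusted p = 0.0299), after centring on the median (0.0483) and with the prior that follows the signal (0.0182), and its highest adjusted p among the alternatives was 0.208. Of 7 tested genes of the gelsolin type, 1 rose and 0 fell, while 2 rose without tamoxifen-labelled array 2. This was Capg, a capping protein of macrophages (0.21 ± 0.063, SE, limma adjusted p = 0.0235), which lost its call under 5 of 20 alternatives, among them without tamoxifen-labelled array 1 or vehicle-labelled array 1 or 2 (adjusted p 0.00647 to 0.0634).

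**Figure D2:**
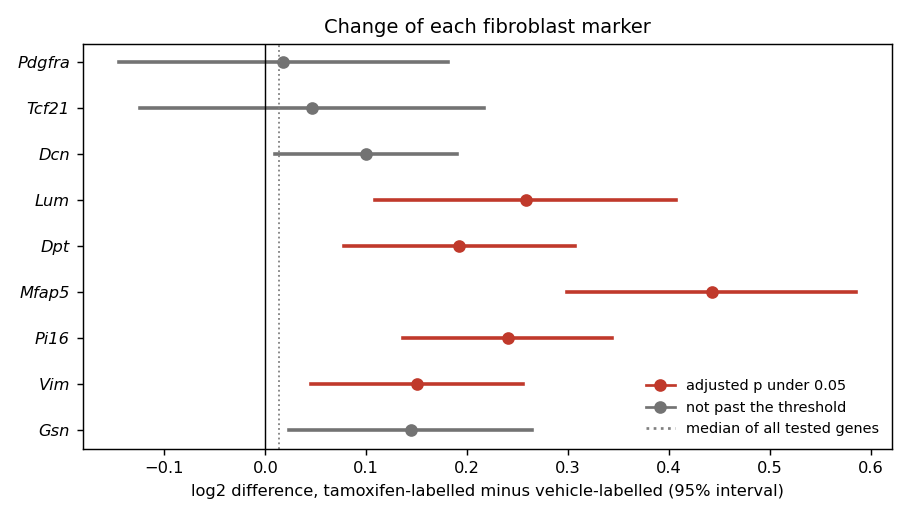
Points are the log2 differences of the 9 markers, tamoxifen-labelled minus vehicle-labelled, and lines their 95% intervals from the limma fit. The intervals of Pdgfra (-0.14 to 0.18) and Tcf21 (-0.12 to 0.22) contain 0, those of the other 7 do not, and 5 of these passed after adjustment over all genes.

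The markers did not all change by the same amount. The log2 difference between a pair of markers within each array was compared between the groups for all 36 pairs with an exact two-sided permutation test. An equal shift of all genes of an array does not affect it, but a shift that depends on the signal can. After Benjamini-Hochberg adjustment 8 of the 36 pairs passed. All 8 had the exact permutation p of 0.00794, below which 5 arrays against 5 cannot go (adjusted p = 0.0357). Of these, 7 held Mfap5: it rose more than Pdgfra by 0.42, Tcf21 by 0.40, Dcn by 0.34, Gsn by 0.30, Vim by 0.29, Dpt by 0.25 and Pi16 by 0.20. Mfap5 minus Tcf21, for instance, was 2.39 to 2.62 in the tamoxifen-labelled arrays and 1.97 to 2.30 in the vehicle-labelled arrays, in log2 units. The remaining pair was Pi16 over Dcn, by 0.14. Mfap5 over Lum (0.18, exact permutation p = 0.0397, adjusted p = 0.119) and Lum over its neighbour Dcn (0.16, p = 0.0794, adjusted p = 0.190) did not pass. Pi16 over Pdgfra (0.22, exact permutation p = 0.0794, adjusted p = 0.190) did not pass either.

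With 36 pairs, at least 6 must reach the smallest p for pairs at that p to pass by themselves. The count was 6 without tamoxifen-labelled array 3, 7 without vehicle-labelled array 4 and 0 without any other single array. The size of the difference moved little, and Mfap5 over Pdgfra stayed at 0.35 or more with each array left out.

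Within the groups the markers varied together only in part. For each pair, deviations from the group means were correlated over the 10 arrays. Pearson's r was above 0 in 30 of 36 pairs, with a median of 0.50, against a median of 0.24 over all pairs of tested genes. The lowest r was that of Pdgfra with Vim (r = -0.45, exact permutation p = 0.234, adjusted p = 0.443). The highest was that of Dcn with Gsn (r = 0.88, rho = 0.86, exact permutation p = 0.0117 and 0.0139, adjusted p = 0.249 and 0.265 over 36 pairs). It was 0.79 without the 2 arrays farthest from the median of Dcn. Pi16 with Mfap5 had r = 0.81 and rho = 0.64 (exact permutation p = 0.0382 and 0.0679, adjusted p = 0.249 and 0.353), and 0.78 without the 2 farthest arrays. Of the 36 pairs, 5 had an exact permutation p under 0.05 for r and 4 for rho, and 0 passed after adjustment for either.

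The size of this covariation depended on the arrays kept and on the scaling. Without tamoxifen-labelled array 2 the median r of the 36 pairs was 0.22 (0.038 over all pairs of tested genes), and without vehicle-labelled array 4 as well it was 0.060 (0.037 over all pairs). Without vehicle-labelled array 4 alone it was 0.50 (0.29 over all pairs). With all 10 arrays kept it was 0.24 after centring on the median (0.066 over all pairs) and 0.19 under quantile normalization (0.014 over all pairs). Pdgfra had the lowest median r with the other 8 markers, 0.15, and Mfap5 the highest, 0.62.

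**Figure D3:**
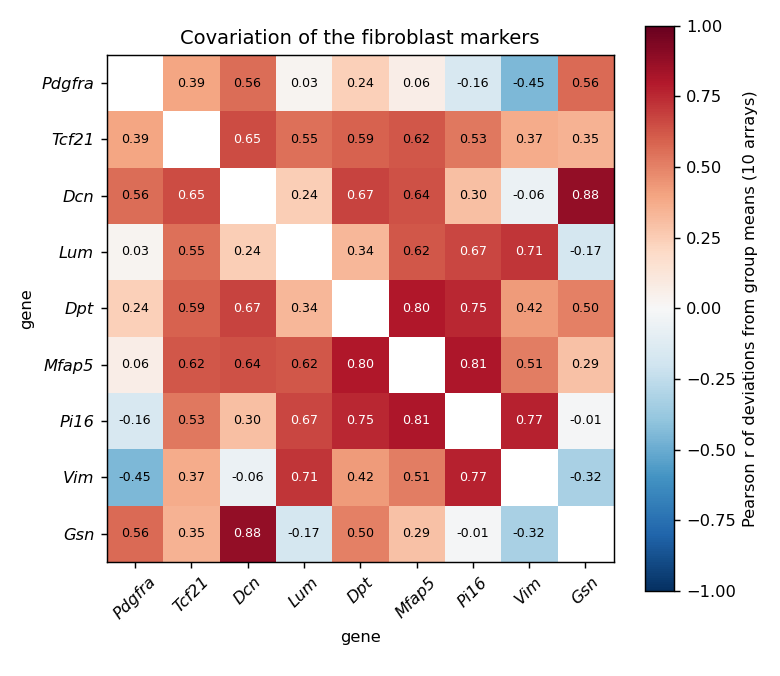
Each cell gives Pearson's r between 2 markers over 10 arrays, after the mean of each group was subtracted. Dcn with Gsn (0.88) is the strongest pair and Pdgfra with Vim (-0.45) the lowest; no pair passed after adjustment over the 36.

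Over all other tested genes, those whose deviations followed the mean deviation of the 9 markers most closely were Aida, Supt3, Stag1, Kifbp and Il6st, with r of 0.98 to 0.99 over 10 arrays, given as a description of these arrays. Of these only Aida rose (0.19 ± 0.052, SE, limma adjusted p = 0.0155), while Supt3 (0.020), Stag1 (0.036), Kifbp (-0.064) and Il6st (0.050) did not pass.

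Further fibroblast genes were set beside the 9 markers. Of 20 further fibroblast markers, 13 rose, 0 fell and 7 did not pass, with a median difference of 0.20. Among them were Medag (0.51 ± 0.095, SE, limma adjusted p = 0.00114), the leukocyte and fibroblast gene Lsp1 (0.30, adjusted p = 0.000551), the elastin crosslinking enzyme gene Loxl1 (0.29, adjusted p = 0.00280) and Pcolce, an enhancer of procollagen processing (0.29, adjusted p = 0.00285). The surface marker Thy1 (-0.036), Scara5 (-0.026) and Htra3 (-0.050), named after their values were seen, did not pass. Of 12 genes of activated fibroblasts, 7 rose and 0 fell. The matricellular gene Tnc rose by 0.68 ± 0.10 (SE, limma adjusted p = 0.000169) and Postn by 0.59 ± 0.089 (adjusted p = 0.000156). Cilp rose by 0.35 (adjusted p = 0.00395) and fibronectin, Fn1, by 0.26 (adjusted p = 0.00992), whereas Cthrc1 (0.0020) and Fap (0.16), also named after seeing their values, did not pass. Tnc read 7.51, 7.50, 7.64, 6.99 and 7.05 in the tamoxifen-labelled arrays and 6.74, 6.63, 6.66, 6.63 and 6.63 in the vehicle-labelled arrays. Of the tamoxifen-labelled arrays, array 3 was the highest in Tnc and array 2 in Mfap5, while arrays 4 and 5 were the lowest in both. Without tamoxifen-labelled array 2 alone, 10 of the 20 further markers and 7 of the 12 activation genes rose. Without tamoxifen-labelled array 2 and vehicle-labelled array 4 together, 10 of the 20 further markers and 4 of the 12 activation genes rose.

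Markers of macrophages rose in the same arrays. Of 14 tested, 9 rose and 0 fell, with a median of 0.26, and 9 rose without tamoxifen-labelled array 2 too. Cd68 rose by 0.40 ± 0.071 (SE, limma adjusted p = 0.000697), Itgam by 0.34, Mrc1 by 0.30 and Adgre1 by 0.30 (adjusted p = 0.00146, 0.00335 and 0.00373). The mean log2 signal of the 14 was 8.61 to 8.87 in the tamoxifen-labelled arrays and 8.41 to 8.60 in the vehicle-labelled arrays, and none of the 14 was below the filter. Macrophages also make vimentin and Capg, and their part in those values was not tested.

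Markers of other cell types are set beside all tested genes, of which 13.7% rose and 8.31% fell. The share that rose was 7.14% for endothelium, 16.7% for smooth muscle and pericytes, 14.3% for mesothelium and 16.7% for cardiomyocytes. Of 14 endothelial markers, 1 rose and 0 fell. The tight junction gene Cldn5 rose (0.35 ± 0.092, SE, limma adjusted p = 0.0117), though not without tamoxifen-labelled array 2 and vehicle-labelled array 4 together (adjusted p = 0.0614), and Cdh5 had -0.098 (adjusted p = 0.118). Their median difference was -0.0010, and their mean signal was 10.37 to 10.53 in the tamoxifen-labelled arrays and 10.36 to 10.48 in the vehicle-labelled arrays. Of 12 smooth muscle and pericyte markers, 2 rose, Cnn1 (0.34 ± 0.070, SE, limma adjusted p = 0.00230) and Acta2 (0.24, adjusted p = 0.0233), the second of which the activation list holds too. Their mean signal was 9.92 to 10.1 in the tamoxifen-labelled arrays and 9.84 to 9.95 in the vehicle-labelled arrays. Acta2 lost its call under 4 of 20 alternatives, among them without tamoxifen-labelled array 3 or 5 (adjusted p 0.00241 to 0.0647). Of 7 mesothelial markers, 1 rose, the keratin gene Krt18 (0.47 ± 0.082, SE, limma adjusted p = 0.000627), and the median was -0.022.

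Among 12 cardiomyocyte markers, 2 rose, Actn2 (0.18 ± 0.044, SE, limma adjusted p = 0.00616) and Tnnc1 (0.13, adjusted p = 0.0367), and the calcium channel gene Ryr2 fell (-0.16, adjusted p = 0.0238). Tnnc1 lost its call under 11 of 20 alternatives, among them without tamoxifen-labelled array 1, 3, 4 or 5 or any 1 of the vehicle-labelled arrays (adjusted p 0.000814 to 0.124), and Ryr2 without tamoxifen-labelled array 5 or vehicle-labelled array 1, 3 or 5 (adjusted p 0.000850 to 0.0637). Without tamoxifen-labelled array 2, 2 of the 12 fell. The mean signal of the 12 was 13.73 to 13.76 in the tamoxifen-labelled arrays and 13.69 to 13.74 in the vehicle-labelled arrays. Of adipocyte markers 0 of 4 tested rose, of lymphocyte markers 0 of 3, and of Schwann cell markers 1 of 4, Cnp (0.24, limma adjusted p = 0.00761). The lymphocyte marker Cd79b did not pass with all arrays (-0.16, limma adjusted p = 0.0770). Without tamoxifen-labelled array 2 it fell (-0.20, adjusted p = 0.022). In these lists Adipoq, Lep, S100b, Cd3d, Cd3g, Cd4, Cd79a, Ms4a1 and Nkg7 were below the filter.

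**Figure D4:**
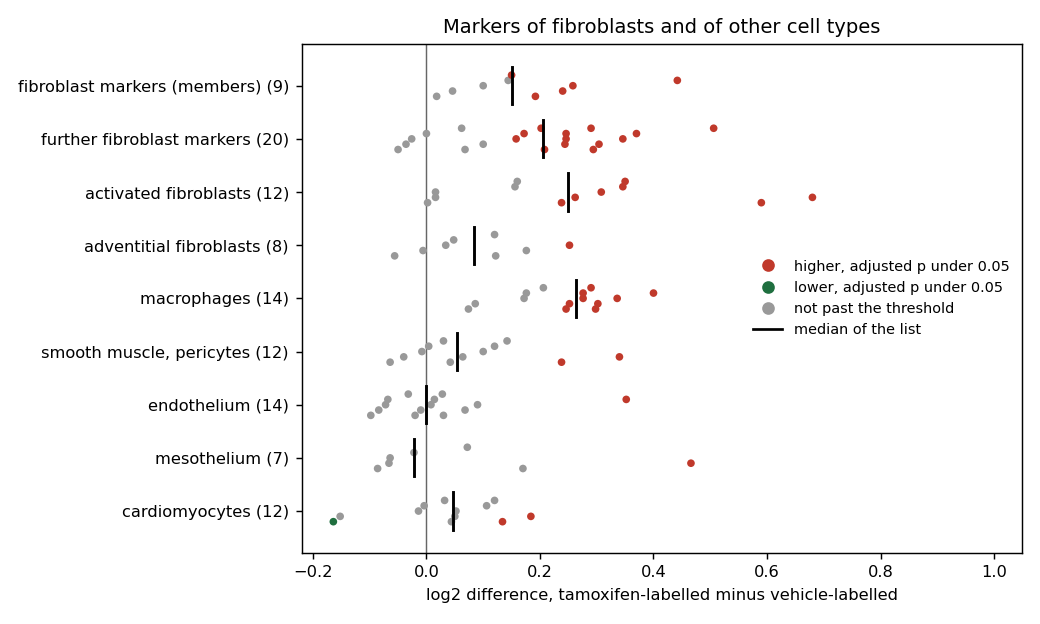
Each point is the log2 difference of 1 tested gene, tamoxifen-labelled minus vehicle-labelled, by marker list with the number tested in brackets; black bars are medians. The medians of the 9 markers (0.15), of further fibroblast markers (0.20), of activated fibroblasts (0.25) and of macrophages (0.26) lie above 0. So do those of adventitial fibroblasts (0.084), smooth muscle and pericytes (0.053) and cardiomyocytes (0.047). Endothelium lies at -0.0010 and mesothelium at -0.022.

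Averaged per array, the 9 markers had a mean log2 signal of 10.97 to 11.16 in the tamoxifen-labelled arrays and of 10.78 to 10.89 in the vehicle-labelled arrays. The further fibroblast markers had 9.19 to 9.43 in the tamoxifen-labelled arrays and 9.04 to 9.12 in the vehicle-labelled arrays, so neither list overlapped between the groups. The groups did not overlap either in the activation and macrophage lists, nor in the gelsolin and intermediate filament lists, which hold Gsn and Vim. In the lists of the 9 markers and of the further markers, tamoxifen-labelled array 2 was the highest and vehicle-labelled array 4 the lowest. Tamoxifen-labelled array 2 was also the highest of all 10 arrays in every other list except those of cardiomyocytes and lymphocytes.

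**Figure D5:**
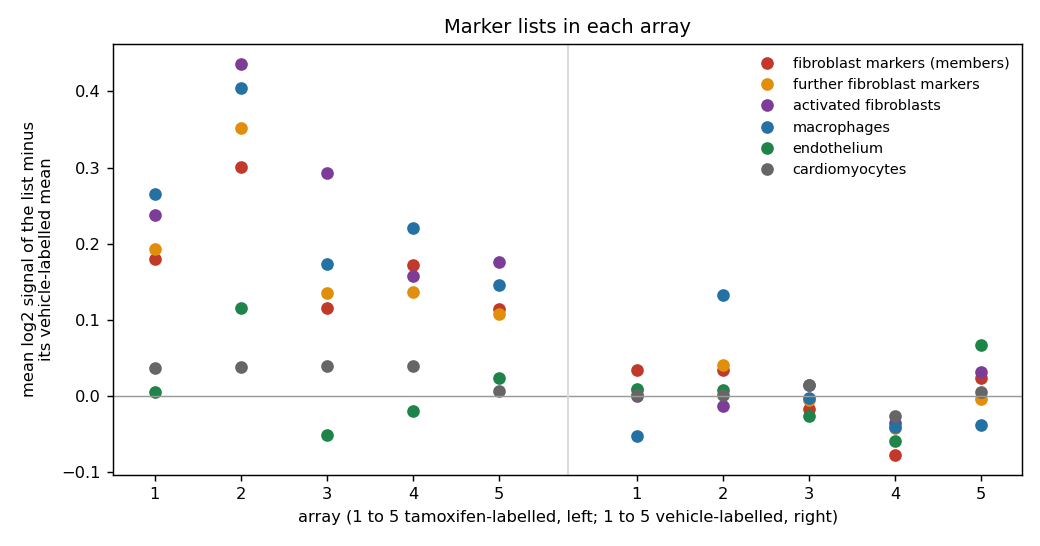
Points are the mean log2 signal of a marker list in 1 array, minus the mean of the vehicle-labelled arrays, with the 5 tamoxifen-labelled arrays on the left. All lists shown except that of cardiomyocytes are highest in tamoxifen-labelled array 2. All except that of endothelium lie above 0 in all 5 tamoxifen-labelled arrays.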

How the data were processed

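Per the submitters' processing notes, the authors made the deposited log2 signals with RMA in Affymetrix Expression Console 1.1, which corrects background, normalizes between arrays and summarises each probe set; per the labels' protocols, 450 ng of RNA per mouse were used. Of 35556 probe sets, 21789 had 1 gene symbol in the platform annotation, and RefSeq identifiers (GRCm38.p6) changed 0 symbols. The probe set with the highest mean stood for a gene, and genes below the 30th percentile of probe set means (log2 6.55) were left out. Of the listed genes, Omd, Kera, Epyc, Vil1, Gfap and Krt19 also fell below it.

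Groups came from the titles. All 10 arrays were fitted with limma 3.58.1 in R 4.3.3 (no covariate, two-sided, Benjamini-Hochberg over 13870 genes, threshold 0.05), and the code was tested on simulated data. The members, lists and tests were chosen with earlier results of these data known. The text names the 9 members, Ppargc1a, Ppargc1b, up to 4 genes of each list with the smallest p, and the 5 genes most similar to the mean of the members, and a few that it says were chosen later. Pairs of members were compared with exact two-sided permutation tests. The 20 alternatives used another prior, a block for the replicate number, array weights, quantile normalization, median centring, other filters, other handling of probe sets, and arrays left out; the closing section gives their effect. Figures used matplotlib 3.10.9.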

Additional observations from a re-analysis of the deposited data

Results flagged for a closer look

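Mfap5 in tamoxifen-labelled array 2 read 11.02, which lay 0.29 above the nearest of the other 4 arrays of its group, or 0.763 of the range of that group, more than the Dixon limit of 0.710 for 5 samples. It was 1 of 18 groups of 5 values checked over the 9 markers, and chance alone flags about 1 in 20. Array 2 also had the highest median signal of all arrays, and the rise of Mfap5 without it was 0.37.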

How the results depend on the processing

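Mfap5 and Pi16 kept their direction and their call under all 20 alternatives, and Lum and Dpt under 19 of 20 each. The number of markers that rose was 3 without tamoxifen-labelled array 2 and vehicle-labelled array 4 together, ranged from 3 to 5 with each array left out in turn, and was 4 to 7 otherwise. The pairs of markers that passed were 0 to 7 with each array left out, and the cause was not tested. Without both of those arrays the count was 0. With 4 arrays against 4 the smallest exact p is larger, so more pairs must reach it for any to pass. That 0 therefore cannot be set against the other counts. The median r of the pairs stayed above 0 in every setting, but its size changed. It was 0.50 with all arrays as deposited, 0.24 after median centring and 0.19 under quantile normalization. It was 0.22 without tamoxifen-labelled array 2 and 0.060 without both arrays. Array weights gave 1780 lower genes, against 1153 without weights. Without tamoxifen-labelled array 2 and vehicle-labelled array 4 together, 1444 genes were higher and 1675 lower. Directions turned only in differences close to 0. With array weights, Tcf21 had -0.034, Supt3 -0.017 and Stag1 -0.015. Under quantile normalization, Pdgfra had -0.010 and Supt3 -0.0081. Without tamoxifen-labelled array 2 and vehicle-labelled array 4 together, Pdgfra had -0.010, Tcf21 -0.078, Supt3 -0.045 and Stag1 -0.048. With each array left out in turn, the differences ranged from -0.026 to 0.072 for Pdgfra, from -0.026 to 0.084 for Tcf21, from -0.017 to 0.044 for Supt3 and from -0.0095 to 0.063 for Stag1. With the replicate number as a block, 2232 genes were higher and 1300 lower, and 5 markers rose, as without it; of the named genes, Pdgfd and Anxa3 passed with the block but not without it (adjusted p = 0.0471 and 0.0415). Same-numbered arrays deviated together with r between 0.039 and 0.203, so not every pair exceeded 0.1 and the fit without the block was kept. As a hint from the data that the numbers may still mark something shared, 7 of 10 arrays correlated best with their own number. Dim genes and changes under about 0.1 are limited by the spread of 5 arrays per group.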
